A study of Mus musculus with 36 samples.

Results

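The Cux, Ovol and Bach factors are 3 small families of DNA-binding transcription factors, and each was represented here by a pair of paralogs, Cux1 and Cux2, Ovol1 and Ovol2, and Bach1 and Bach2. The members were selected on measured values: *Cux2*, *Ovol1* and *Bach2* were chosen by their higher counts in high CHIR than in low CHIR in wild-type nephron progenitor cells (NPCs) and by their lower counts after β-catenin removal in high CHIR, and each was set beside its paralog by family name. Members were matched by Ensembl identifier. All 6 had a row among the 25760 genes of the wild-type table, and 5 had one among the 26863 genes of the β-catenin removal table and the 26472 genes of the Tcf/Lef removal table. *Ovol2* was the member without a row in those tables, and no gene with fewer than 10 reads in total over a table's libraries was listed in any of them.

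CHIR99021 (CHIR) inhibits GSK3, so that β-catenin is stabilised and enters the nucleus, where it acts as a coactivator on DNA-bound factors of the Tcf/Lef family. NPCs are the mesenchymal cells of the fetal kidney that renew themselves under weak canonical Wnt input, and that aggregate and turn into the epithelium of the nephron under strong input. Cux1 and Cux2 are homeodomain proteins of the CUT class that act mostly as repressors, Cux1 in proliferating cells of many tissues and Cux2 best known in neurons of the upper cortical layers. Ovol1 and Ovol2 are zinc finger repressors that hold epithelial cells in their state by repressing genes of the mesenchymal program such as *Zeb1*. Bach1 and Bach2 are leucine zipper factors of the CNC class that pair with small Maf proteins and repress genes of heme, iron and redox metabolism, Bach1 widely and Bach2 best known in B and T lymphocytes.

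Gene counts came from 36 RNA-seq libraries of primary mouse NPCs, enriched from pooled E16.5 kidneys by magnetic depletion of other cells and cultured in NPEM medium. The first table held Wild Type NPCs in no (0 µM), low (1.25 µM) and high (5 µM) CHIR, with 3 libraries in each. The second held 8 groups of 2 libraries, in low and high CHIR: B-catenin c/c NPCs, in which both *Ctnnb1* alleles are floxed, given Cre mRNA (Cre-pos) or not (Cre-neg), and Cas9-eGFP NPCs given sgRNAs against *Ctnnb1* or against GFP. The third held Cas9-eGFP NPCs after a longer knockout period with sgRNAs against *Tcf7l1*, *Tcf7l2*, *Tcf7* and *Lef1* (quadruple knockout, QKO; 2 libraries in low and 3 in high CHIR) or against GFP (3 in each). The transfected cells also took up mCherry mRNA and were sorted for it, so an edited library is a mixed population of sorted cells and not a clone, and all Cas9-eGFP groups, controls included, carry Cas9 and a guide. Mothers were Swiss Webster or C57Bl/6, and which libraries came from which strain was not given in the sources used here. Nothing in the labels says that replicates came from separate cultures or litters, so the p-values measure the spread between these libraries, which may be technical.

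The promoter windows of the members are shown because the coactivator studied here acts through Tcf/Lef sites in DNA. RefSeq gave a start site in GRCm38.p6 for 5 of the 6 members (all but *Ovol1*), with a second start for *Cux2*, and the 250 bases upstream were searched on both strands for the core of a Tcf/Lef site, CTTTGA followed by A or T, or CTTTGT followed by A or T, set in capitals where found. In the 6 windows of these members 1 match was found, CTTTGTT in the more upstream window of *Cux2*, starting 146 bases before the first transcribed base. Of all 32851 promoters of that length 14.8% hold a match. A match describes letters in a window, and its use by a factor was not measured here. Each window is written 5′ to 3′ on the strand of its gene.
Cux2 (chr5:122049852-122050101, minus strand): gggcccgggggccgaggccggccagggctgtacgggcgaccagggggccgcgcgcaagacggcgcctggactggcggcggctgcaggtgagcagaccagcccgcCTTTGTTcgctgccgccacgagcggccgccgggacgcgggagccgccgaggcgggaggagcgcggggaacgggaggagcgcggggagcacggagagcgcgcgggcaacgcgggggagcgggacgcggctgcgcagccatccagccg
Cux2, second start (chr5:122047826-122048075, minus strand): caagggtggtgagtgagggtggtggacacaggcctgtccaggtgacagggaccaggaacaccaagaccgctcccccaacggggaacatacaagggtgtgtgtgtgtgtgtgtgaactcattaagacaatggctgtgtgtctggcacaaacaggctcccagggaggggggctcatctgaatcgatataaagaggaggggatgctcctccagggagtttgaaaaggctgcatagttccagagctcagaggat
Cux1 (chr5:136565982-136566231, minus strand): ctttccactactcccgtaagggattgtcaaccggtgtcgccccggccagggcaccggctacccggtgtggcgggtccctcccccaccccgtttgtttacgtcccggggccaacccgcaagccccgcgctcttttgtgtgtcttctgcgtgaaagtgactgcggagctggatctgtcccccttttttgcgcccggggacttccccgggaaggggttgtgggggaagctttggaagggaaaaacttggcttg
Bach2 (chr4:32417185-32417434, plus strand): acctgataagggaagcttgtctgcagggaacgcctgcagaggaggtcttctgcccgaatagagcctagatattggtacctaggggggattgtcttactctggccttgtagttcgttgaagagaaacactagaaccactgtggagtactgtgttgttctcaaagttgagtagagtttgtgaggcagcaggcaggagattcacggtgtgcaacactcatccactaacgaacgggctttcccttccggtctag
Bach1 (chr16:87698704-87698953, plus strand): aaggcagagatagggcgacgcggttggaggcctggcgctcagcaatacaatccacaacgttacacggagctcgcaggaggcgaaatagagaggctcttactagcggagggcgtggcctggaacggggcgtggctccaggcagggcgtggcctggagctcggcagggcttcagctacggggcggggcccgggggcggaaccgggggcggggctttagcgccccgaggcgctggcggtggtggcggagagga
Ovol2 (chr2:144331363-144331612, minus strand): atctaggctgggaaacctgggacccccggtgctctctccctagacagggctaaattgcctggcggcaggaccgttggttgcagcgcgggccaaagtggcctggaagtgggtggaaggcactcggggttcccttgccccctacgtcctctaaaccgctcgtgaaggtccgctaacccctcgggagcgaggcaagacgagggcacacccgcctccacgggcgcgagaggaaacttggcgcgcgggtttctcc
The *Cux2* window with the match was 80.0% G and C with 40 CpG dinucleotides and the other *Cux2* window 55.2% with 3, against 62.8% and 18 for *Cux1*, 69.2% and 25 for *Bach1*, 65.2% and 20 for *Ovol2*, and 50.4% and 7 for *Bach2*. The start sites that RefSeq gives for *Bach2*, *Cux1*, *Ovol2* and *Cux2* (both starts) lie inside the genes as annotated by GENCODE vM21, and further transcripts of each start upstream of them. The start of *Bach1*, at 87698954, lies close to the first annotated start at 87698945.

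In that annotation *Cux1* (ENSMUSG00000029705) lies on chromosome 5 from 136248135 to 136567490, with 20.024 kb of merged exon sequence, and *Cux2* (ENSMUSG00000042589) on the same chromosome from 121856366 to 122050102, with 10.082 kb. *Ovol1* (ENSMUSG00000024922) lies on chromosome 19 from 5549136 to 5560646 (3.488 kb) and *Ovol2* (ENSMUSG00000037279) on chromosome 2 from 144305175 to 144332146 (2.113 kb), and these 4 genes are on the minus strand. *Bach1* (ENSMUSG00000025612) lies on chromosome 16 from 87698945 to 87733346 (6.179 kb) and *Bach2* (ENSMUSG00000040270) on chromosome 4 from 32238804 to 32586108 (9.940 kb), both on the plus strand. Exons of *Cux1*, *Ovol1*, *Ovol2* and *Bach2* overlap those of other genes on the opposite strand. *Cux1* shares 394 bases with *Gm16599*, and *Ovol1* shares 690 with *Gm31166* and 76 with *AC126029.1*. *Ovol2* shares 359 with *1700108N11Rik* and *Bach2* 537 with *Bach2os*. The library kit does not mark strand, so reads in those stretches cannot be told apart by strand. Only unambiguous reads were counted, so such reads may be missing from a gene's count and lower its level per kilobase. A gene's count sums over all its transcripts, those of *Cux1* including the CASP isoform, which lacks the DNA-binding part.

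Depth, as reads on genes, was 13651129 to 76071568 in the wild-type libraries, 14537850 to 27838106 in the β-catenin removal libraries and 13089780 to 20152719 in the Tcf/Lef libraries. *Ctnnb1* counted 1040 to 1652 in the Ctnnb1sgRNA libraries in low CHIR against 2521 to 3397 in their GFPsgRNA controls. In high CHIR it counted 1270 to 1630 against 2632 to 2701. With Cre it counted 2451 to 3085 in Cre-pos against 3097 to 3880 in Cre-neg libraries in low CHIR. In high CHIR the Cre-pos and Cre-neg libraries overlapped (2254 to 2583 and 2207 to 2423). A gene total that includes exons outside the deletion checks little. By immunostaining, the paper reported less β-catenin protein with both methods. In high CHIR *Lef1*, itself a Wnt target, counted 255 to 513 in QKO against 1144 to 2743 in control NPCs. *Tcf7* counted 110 to 180 against 268 to 535 there, whereas *Tcf7l1* overlapped (539 to 736 against 486 to 612). In low CHIR *Tcf7l1* counted 827 to 1286 in QKO against 1736 to 2225 in controls. *Tcf7* counted 66.2 to 97.7 against 141 to 220 in low CHIR, whereas *Lef1* overlapped. *Tcf7l2* overlapped at both doses. The paper reported loss of protein for each factor with its own guide. One wild-type library, replicate 3 in high CHIR, stood apart from the other 2 of its group. Its 5 measured ureteric epithelium markers summed to 712 normalized counts against 5262 and 5427. Its 6 Cux1-linked genes summed to 31660 against 5555 and 6791. These were the cell cycle inhibitors *Cdkn1a*, *Cdkn1b* and *Cdkn1c*, with *Ccna2*, *Pola1* and *Tle4*, so the sum does not measure proliferation. The library's 5 induced NPC markers (*Wnt4*, *Lef1*, *Jag1*, *Fgf8* and *Lhx1*) summed to 24294 against 22676 and 26200. The wild-type values in high CHIR that follow are given with and without this library. Summed blood markers were at 7.36 to 75.8 in all libraries, and NPC markers at 4146 to 31195. Stroma markers were not low: in wild-type low CHIR they summed to 17229 to 20176, and NPC markers to 15407 to 20259. These sums cover different genes and are not per kilobase, so they do not give shares of cells. With a transgenic reporter, the paper found the large majority of cultured cells labelled as NPCs. In high CHIR stroma markers summed to 12457 to 16810 with Ctnnb1sgRNA against 5929 to 13489 with GFPsgRNA. They summed to 7325 to 11768 in Cre-pos against 5359 to 6470 in Cre-neg NPCs. Fewer cells of a type and less RNA per cell cannot be told apart in such bulk libraries.

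*Cux2* was scarce without strong CHIR and several times higher with it. In wild-type NPCs its normalized counts were 192, 129 and 199 without CHIR, 163, 121 and 165 in low CHIR, and 946, 669 and 3041 in high CHIR. The high CHIR libraries all lay above the others, and the no and low CHIR libraries overlapped. High against low CHIR gave a log2 fold change of 3.06 (SE 0.46, n = 3 and 3; 8.35-fold), and 2.42 (SE 0.27; 5.34-fold) without replicate 3, whose count was the highest. No against low CHIR gave 0.20 (SE 0.46). The low CHIR libraries took part in the choice of the members, so this difference too is given with no test, here and for the other members. *Cux1*, by contrast, counted 2753 to 3583 without CHIR, 3106 to 3368 in low CHIR and 2164 to 3928 in high CHIR, and these ranges overlapped. Its high against low difference was -0.22 (SE 0.20) on the log2 scale, and -0.47 (SE 0.14) without replicate 3. Per kilobase of exon, *Cux1* stood at 163 ± 6.78 and *Cux2* at 14.8 ± 2.50 normalized counts in low CHIR (SD, n = 3), against 144 ± 46.1 and 154 ± 129 in high CHIR. The near equality in high CHIR rests on replicate 3, where *Cux2* (302) exceeded *Cux1* (196), and without it *Cux1* stood at 118 ± 14.3 and *Cux2* at 80.1 ± 19.4 (SD, n = 2).

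**Figure D1:**
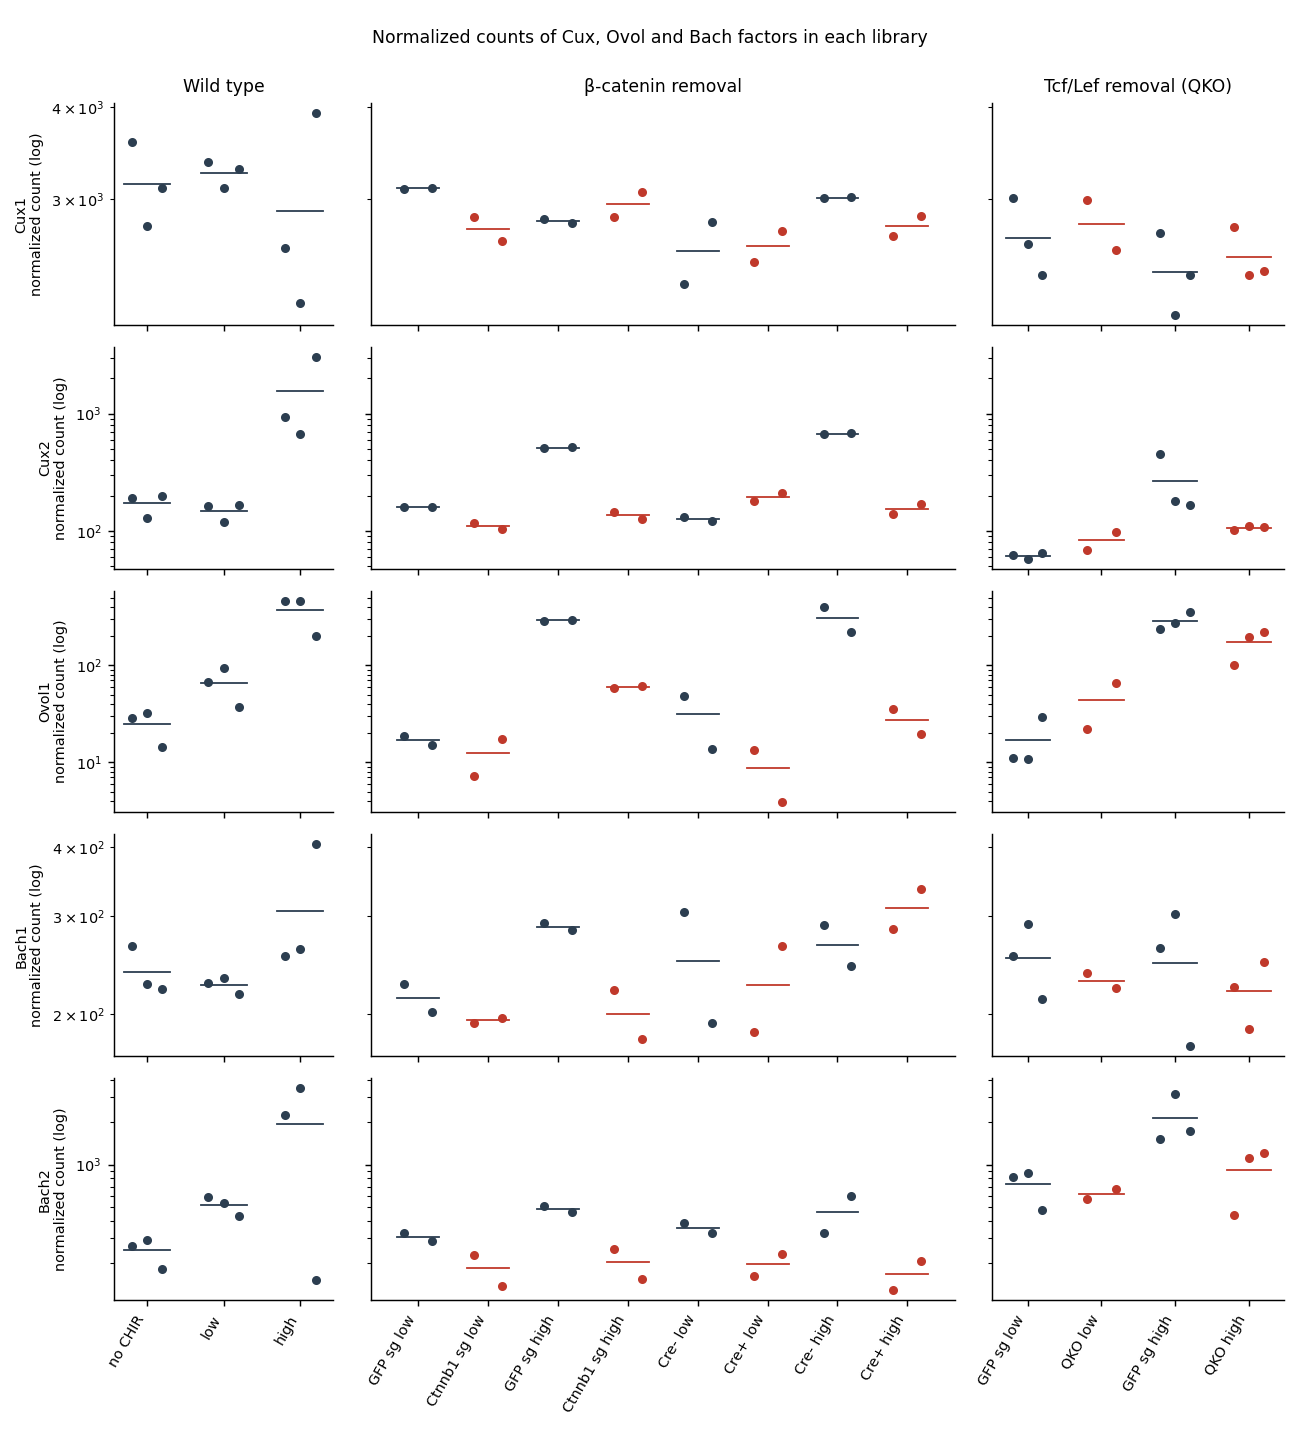
Normalized count (log axis) of 5 members in each of 36 libraries, by group, with a horizontal bar at each group's mean; red marks Ctnnb1sgRNA, Cre-pos and QKO libraries. *Cux2*, *Ovol1* and *Bach2* sit higher in the high CHIR controls than in low CHIR, apart from 1 wild-type library for *Bach2* (151) and 1 Cre-neg library (329), while *Cux1* and *Bach1* stay within 2082 to 3928 and 175 to 404.

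β-Catenin removal in high CHIR left *Cux2* near its low CHIR level. The 2 GFPsgRNA libraries in high CHIR counted 507 and 518 and the 2 Ctnnb1sgRNA libraries 145 and 128, a log2 difference of -1.90 (SE 0.21). Cre-neg libraries counted 669 and 684 and Cre-pos libraries 139 and 169, a difference of -2.13 (SE 0.21). Within the edited cells, high CHIR differed from low CHIR by 0.30 (SE 0.21) with Ctnnb1sgRNA and by -0.35 (SE 0.21) with Cre. These contrasts belong to the choice of the members and are given with no test. The removal contrasts in low CHIR were not used in the choice, although their libraries entered the high against low CHIR contrasts above. In low CHIR the edits went opposite ways. *Cux2* counted 180 and 212 in Cre-pos against 132 and 122 in Cre-neg NPCs (log2 difference 0.62, SE 0.21, adjusted p = 0.285 by limma). It counted 118 and 104 with Ctnnb1sgRNA against 161 and 159 with GFPsgRNA (-0.53, SE 0.21, adjusted p = 1). *Cux1* counted 2294 to 3101 over all 16 libraries of this table.

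In the Tcf/Lef table, whose libraries were not among those the members were chosen on, *Cux2* again rose with CHIR. Earlier results of these data were known when the choice was made. Control NPCs counted 62.4, 58.2 and 64.8 in low CHIR and 451, 179 and 168 in high CHIR, which do not overlap. That is a 3.82-fold rise (log2 fold change 1.93, SE 0.33, adjusted p = 0.00199 by limma), in which replicate 1 is the highest library. QKO libraries counted 68.5 and 97.7 in low CHIR and 103, 110.1 and 109 in high CHIR, below all 3 controls in high CHIR. The QKO difference in high CHIR was -1.15 (SE 0.33, adjusted p = 0.106), and within QKO high against low CHIR gave 0.38 (SE 0.37, 95% interval -0.42 to 1.19, adjusted p = 0.712). With the replicate number as a block the adjusted p of the QKO difference was 0.0539, and over 9 alternatives it ran from 0.00819 (DESeq2) to 0.135. The interaction, which asks whether the CHIR response differed between QKO and control, was -1.55 (SE 0.50, adjusted p = 0.516). *Cux1* counted 2082 to 3006 over the 11 libraries, and its CHIR response in controls was -0.16 (SE 0.14, 95% interval -0.46 to 0.14, adjusted p = 0.505).

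In wild-type NPCs the counts of *Ovol1* followed the order of the CHIR doses. Wild-type libraries counted 28.5, 32.2 and 14.5 without CHIR, 67.0, 94.0 and 37.1 in low CHIR and 465, 461 and 203 in high CHIR. The 3 groups did not overlap. No against low CHIR gave a log2 difference of -1.34 (SE 0.46). High against low CHIR gave 2.49 (SE 0.46; 5.62-fold), and 2.89 (SE 0.46; 7.40-fold) without replicate 3. *Ovol2* was close to absent: 7 of 9 libraries were listed at 0, and the other 2 held 11 reads between them, 2 in replicate 3 without CHIR and 9 in replicate 3 in high CHIR (2.23 and 8.41 normalized counts). Its mean was under the filter of 10, so it was not tested, and no gain of the paralog was detectable at this depth.

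After β-catenin removal *Ovol1* in high CHIR lay below its controls but above the edited cells' own low CHIR libraries. With Cre it lay within the range of the Cre-neg libraries in low CHIR (48.9 and 13.7). In high CHIR the GFPsgRNA libraries counted 290.0 and 293 and the Ctnnb1sgRNA libraries 58.0 and 61.6, a log2 difference of -2.27 (SE 0.64). Cre-neg libraries counted 399.5 and 222 and Cre-pos libraries 35.3 and 19.4, a difference of -3.46 (SE 0.64). Within the edited cells high CHIR still stood 2.30 above low CHIR with Ctnnb1sgRNA (SE 0.64; 7.31 and 17.4 in low CHIR) and 1.70 above with Cre (SE 0.64; 13.5 and 3.86 in low CHIR), against 4.03 and 3.46 in the GFPsgRNA and Cre-neg controls. As above, these are descriptions with no test. In low CHIR the Cre difference was -1.69 (SE 0.64, adjusted p = 0.358; Cre-neg 48.9 and 13.7) and the Ctnnb1sgRNA difference -0.53 (SE 0.64, adjusted p = 1; GFPsgRNA 18.9 and 15.2).

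In control NPCs of the Tcf/Lef table *Ovol1* had the largest rise of the 5 tested members. It counted 11, 10.9 and 29.4 in low CHIR and 237, 274 and 357 in high CHIR, a 17.6-fold rise (log2 fold change 4.14, SE 0.47, adjusted p = 0.000131). QKO libraries counted 22.1 and 65.5 in low CHIR, where 1 of 2 lay above the controls, and 100.0, 197 and 222 in high CHIR, where all 3 lay below the lowest control. The QKO difference was 1.27 in low CHIR (SE 0.53, adjusted p = 0.904) and -0.80 in high CHIR (SE 0.47, adjusted p = 0.489). Within QKO, high against low CHIR gave 2.07 (SE 0.53; 4.20-fold, adjusted p = 0.0654), and with the replicate number as a block 2.11 (SE 0.32, adjusted p = 0.00273), which passed; the range over 9 alternatives was 0.00273 to 0.10. With only 2 QKO libraries in low CHIR the unblocked value moved with each of them, to 1.31 (adjusted p = 0.437) without replicate 1 and 2.83 (adjusted p = 0.0536) without replicate 3. The interaction was -2.06 (SE 0.71, adjusted p = 0.612; with the block -2.02, SE 0.42, adjusted p = 0.0565).

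*Bach2* in wild-type NPCs also followed the order of the doses in all libraries but 1. It counted 267, 294 and 183 without CHIR, 587, 535 and 435 in low CHIR and 2237, 3487 and 151 in high CHIR. Without CHIR all 3 libraries lay below those in low CHIR, and in high CHIR replicate 3 lay below all others of the table. High against low CHIR gave 1.04 (SE 0.90; 2.05-fold) with that library and 2.44 (SE 0.26; 5.42-fold) without it. No against low CHIR gave -1.08 (SE 0.90). *Bach1* counted 222 to 266 without CHIR, 218 to 233 in low CHIR, and 254, 262 and 404 in high CHIR, where replicate 3 was the highest. Its high against low difference was 0.41 (SE 0.21), and 0.19 (SE 0.18) without replicate 3. Per kilobase of exon, *Bach1* stood at 36.6 ± 1.20 and *Bach2* at 52.2 ± 7.80 in low CHIR (SD, n = 3), and at 49.7 ± 13.6 and 197 ± 170 in high CHIR. Without replicate 3 the high CHIR levels were 41.8 ± 0.92 for *Bach1* and 288 ± 88.9 for *Bach2* (SD, n = 2).

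In the controls of the β-catenin removal table the CHIR differences of *Bach2* were the smallest of the 3 responsive members. The log2 difference was 0.67 (SE 0.36) with GFPsgRNA, from 327 and 286 in low to 508 and 464 in high CHIR, and 0.32 (SE 0.36) in Cre-neg NPCs, from 386 and 327 to 329 and 595.5, which overlap. β-Catenin removal in high CHIR gave -1.29 (SE 0.36) with Ctnnb1sgRNA, at 253 and 155, and -1.43 (SE 0.36) with Cre, at 129 and 206. In low CHIR *Bach2* also lay below the controls with both edits, at 229 and 138 with Ctnnb1sgRNA (-0.78, SE 0.36, adjusted p = 1) and at 164 and 232 with Cre (-0.87, SE 0.36, adjusted p = 0.402), though neither difference passed the test. *Bach1* counted 180.4 to 336 over the 16 libraries, with 221 and 180.4 in Ctnnb1sgRNA against 291 and 283 in GFPsgRNA libraries in high CHIR (-0.52, SE 0.26). Its own CHIR difference was 0.42 (SE 0.26) with GFPsgRNA, from 227 and 202 in low CHIR, which do not overlap those in high CHIR. In Cre-neg NPCs it was 0.13 (SE 0.26).

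In the controls of the Tcf/Lef table *Bach2* counted 817, 877 and 481 in low CHIR and 1534, 3152 and 1746 in high CHIR. The rise was 2.90-fold (log2 fold change 1.54, SE 0.38, adjusted p = 0.0179), and without replicate 2 in high CHIR, the highest library, it was 1.22 with an adjusted p of 0.0849 (0.0197 to 0.0849 leaving out each library). QKO libraries counted 572 and 671 in low CHIR and 439.8, 1119 and 1214 in high CHIR, all below the controls in high CHIR. The QKO difference in high CHIR was -1.27 (SE 0.38, adjusted p = 0.124), and with the replicate number as a block the same difference passed (SE 0.30, adjusted p = 0.0258; range over 9 alternatives 0.0216 to 0.132). Within QKO the CHIR response was 0.44 (SE 0.43, 95% interval -0.49 to 1.38, adjusted p = 0.715), and the interaction -1.09 (SE 0.58, adjusted p = 1.00). *Bach1* counted 175 to 303, with a CHIR response of -0.06 in controls (SE 0.22, 95% interval -0.54 to 0.43, adjusted p = 0.907).

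**Figure D2:**
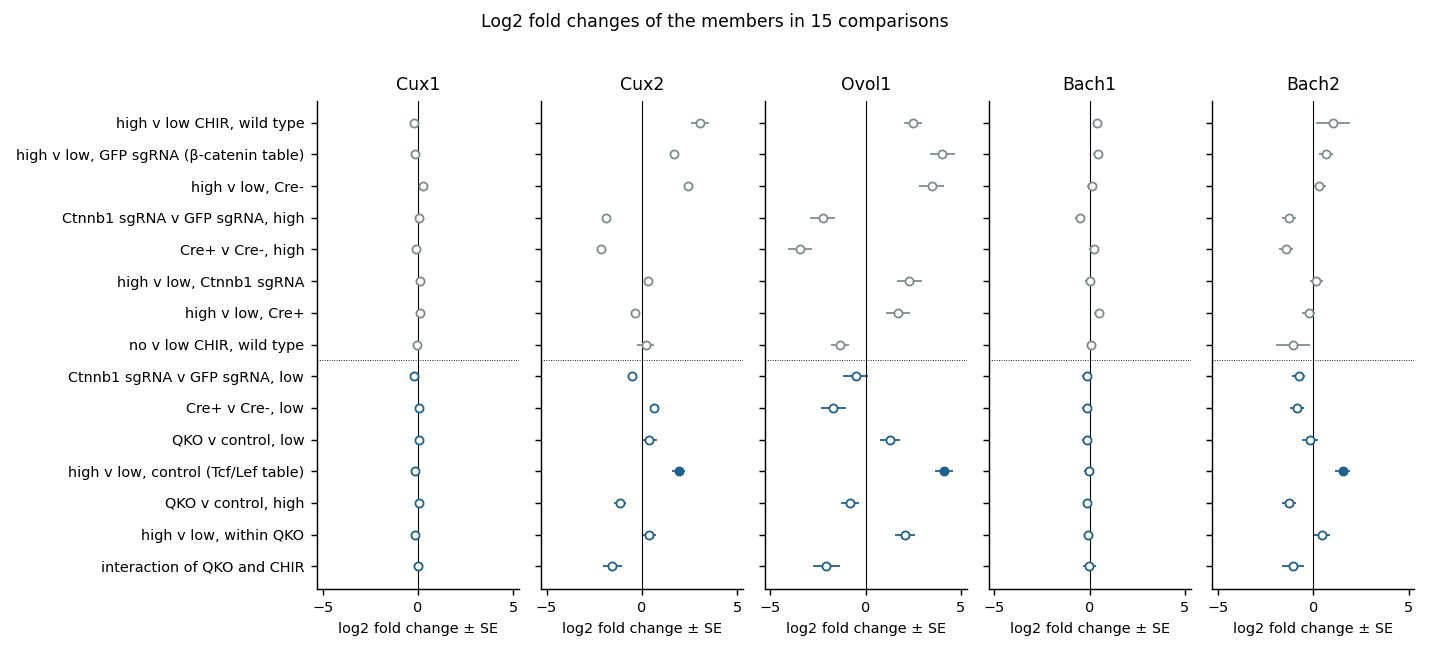
Log2 fold change (x axis) with 1 SE for 5 members in 15 comparisons; grey points above the dotted line are contrasts with libraries used in choosing the members and carry no test, and blue points below it were tested, filled where called. The filled points are *Cux2* (1.93), *Ovol1* (4.14) and *Bach2* (1.54) in the controls of the Tcf/Lef table, and *Cux1* and *Bach1* lie between -0.52 and 0.48 in all 15 comparisons.

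Counted over the members, 3 of 5 tested were called higher in high CHIR in the controls of the Tcf/Lef table, where a call needed an absolute log2 fold change of 0.5 or more together with an adjusted p below 0.05. By the same rule 14.9% of all 15878 genes tested were called there, and 6.98% of all were called higher. edgeR and DESeq2 on whole reads recovered from the normalized counts called the same number. These libraries were not those the choice was made on, but the genes had been chosen for this response in other libraries. Earlier results of these data were also known at that time. QKO in high CHIR gave 0 of 5 by limma, against 2.54% of all genes; 2 members (*Cux2* and *Bach2*) had an unadjusted p under 0.05, edgeR called 0 and DESeq2 2. With the replicate number as a block 1 member was called there (*Bach2*), against 7.44% of all genes. High against low CHIR within QKO gave 0 of 5 by limma, against 2.54% of all genes, with 1 unadjusted p under 0.05 (*Ovol1*), 0 calls by edgeR and 1 by DESeq2. With the block 1 was called (*Ovol1*), against 6.0% of all genes. The CHIR response of the controls and the QKO difference in high CHIR share the 3 control libraries in high CHIR, and the QKO difference and the response within QKO share the 3 QKO libraries.

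The other 4 comparisons gave 0 of 5 members by limma. Cre removal in low CHIR called 0.328% of all genes, and 3 members (*Cux2*, *Ovol1* and *Bach2*) had such a p. Cas9 removal in low CHIR called 0.0536%, and 2 members (*Cux2* and *Bach2*) had one. QKO in low CHIR called 0.00630%, with 1 such member (*Ovol1*), and the interaction called 0.126%, or 0.857% with the replicate block, with 2 (*Cux2* and *Ovol1*). edgeR and DESeq2 called 0 members in each of those 4.

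Dividing each responsive member by its paralog in the same library removes the scaling between libraries. The log2 ratio of counts of *Cux2* to *Cux1* was -4.45 ± 0.20 in low CHIR and -1.17 ± 0.70 in high CHIR in wild-type NPCs (SD, n = 3), and -1.57 ± 0.18 in high CHIR without replicate 3 (SD, n = 2). It lay below 0 in every library, as a ratio of counts that is not per kilobase, and the longer exons of *Cux1* lower it. In the controls of the Tcf/Lef table the ratio was -5.40 ± 0.21 in low and -3.31 ± 0.64 in high CHIR (difference 2.09, two-sided exact permutation p = 0.1), and -4.53 ± 0.18 in QKO in high CHIR (difference -1.22, exact permutation p = 0.1). The log2 ratio of *Bach2* to *Bach1* was 1.48 ± 0.27 in low and 3.07 ± 0.47 in high CHIR (difference 1.59, exact permutation p = 0.1), and 1.94 ± 0.85 in QKO in high CHIR (difference -1.13, exact permutation p = 0.2). With 3 libraries against 3, p = 0.1 is the smallest this exact permutation test can give, so none of these 4 comparisons could pass the threshold. In wild-type NPCs the *Bach2* to *Bach1* ratio was 0.03 ± 0.33 without CHIR and 1.19 ± 0.19 in low CHIR, and in high CHIR it ran from -1.41 in replicate 3 to 3.73. In the controls of the β-catenin removal table it moved little. With GFPsgRNA it was 0.51 ± 0.02 in low and 0.75 ± 0.06 in high CHIR (SD, n = 2). In Cre-neg NPCs it was 0.55 ± 0.29 and 0.73 ± 0.77 (SD, n = 2).

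**Figure D3:**
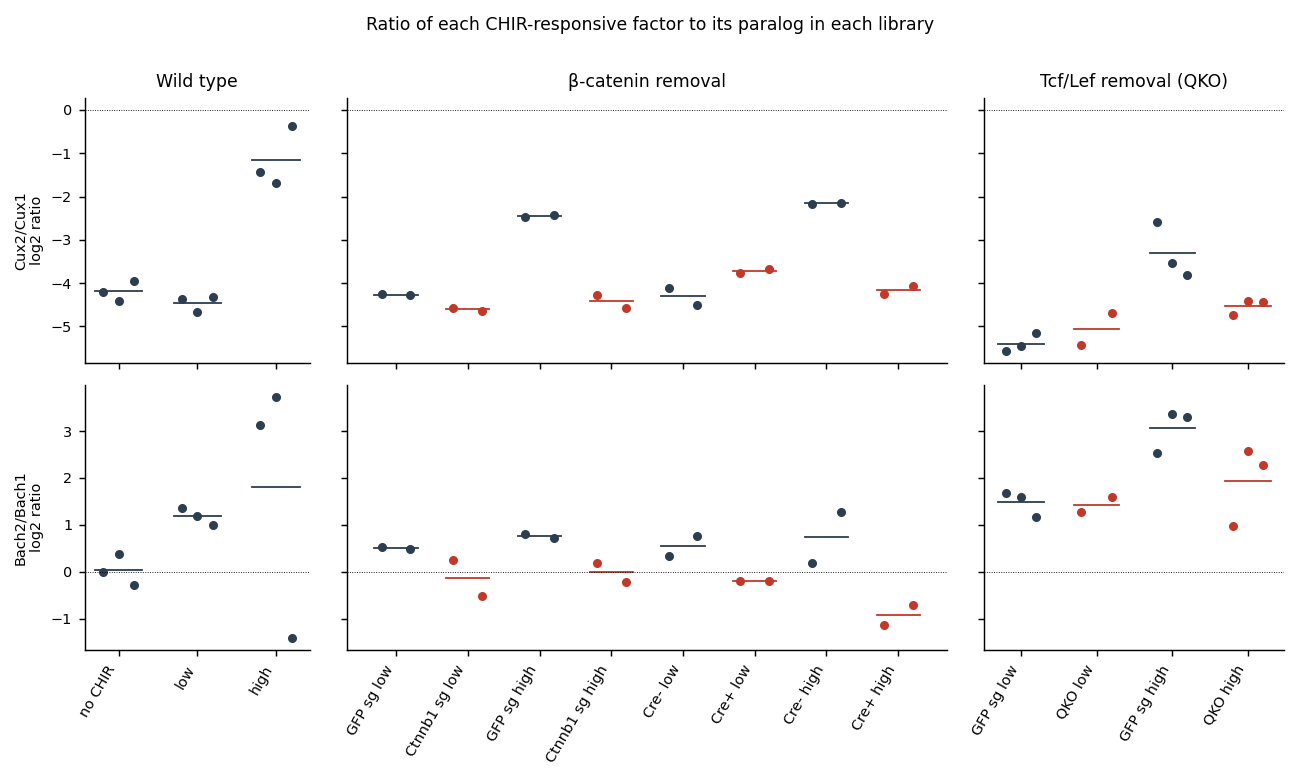
Log2 ratio of normalized counts of *Cux2* to *Cux1* (top) and *Bach2* to *Bach1* (bottom) in each library by group, with group means as bars and removal groups in red. The *Cux2* to *Cux1* ratio lies below 0 in every library, and in Cre-pos NPCs in high CHIR both ratios (-4.16 and -0.92 on average) sit below those of Cre-neg NPCs (-2.15 and 0.73).

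Marker genes of other states moved with the members. In the controls of the Tcf/Lef table the 5 induced NPC markers summed to 226 to 348 normalized counts in low and 17361 to 31080 in high CHIR, and to 5810 to 11465 in QKO in high CHIR. The 6 ureteric epithelium markers summed to 22.7 to 58.7, 249.9 to 667 and 94.5 to 215 in the same order of groups, and the 4 endothelium markers to 27.7 to 41.6, 98.9 to 209 and 50.4 to 83.1, while the 6 stroma markers summed to 5595 to 9316, 1621 to 3673 and 2468 to 7972. No marker of these lists was at 0 throughout a group of that table. In the β-catenin removal table the induced markers in high CHIR summed to 21225 to 22188 with GFPsgRNA, 3362 to 5817 with Ctnnb1sgRNA, 16414 to 19226 in Cre-neg and 2467 to 2503 in Cre-pos NPCs. The part of these cell states in the members' differences was not tested.

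Genes near the members in function were counted from 4 lists of 46 genes. Of 6 genes linked to Cux1, which are 5 cell cycle genes and *Tle4*, 0 were called for CHIR in controls by limma, against 14.9% of all genes (median log2 fold change -0.32 against 0.0036 over all genes), 3 had an unadjusted p under 0.05, and edgeR called 1 and DESeq2 2. With the block *Tle4* was higher (0.65, SE 0.19, adjusted p = 0.0273) and *Cdkn1c*, a cell cycle inhibitor, lower (-0.85, SE 0.26, adjusted p = 0.0339). *Ccna2*, cyclin A2, and *Pola1*, a DNA polymerase subunit, gave -0.50 (SE 0.16) and -0.07 (SE 0.15). In QKO in high CHIR *Cdkn1a*, which encodes the cell cycle inhibitor p21, was higher at 5180 to 5746 against 1357 to 1688 (1.82, SE 0.33, adjusted p = 0.0136). *Tle4*, a corepressor that binds Tcf/Lef factors, was lower at 297 to 389.5 against 556 to 794 (-0.93, SE 0.21, adjusted p = 0.0388), and *Cdkn1b* gave -0.23 (SE 0.30, adjusted p = 0.782).

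The list around the Ovol factors held the most calls. Of 20 genes 12 were tested in the Tcf/Lef table, and with CHIR 4 fell and 2 rose in controls, against 14.9% of all genes called (median -0.52). *Zeb1*, a repressor of epithelial genes, went from 1567 to 1728 in low to 149 to 310.5 in high CHIR (-2.86, SE 0.23, adjusted p = 1.08e-05). *Snai2*, another such repressor, went from 1985 to 3720 to 245 to 476 (-3.14, SE 0.36, adjusted p = 0.000132). *Cdh2*, which encodes N-cadherin (-0.76, SE 0.20, adjusted p = 0.0215), and *Vim*, vimentin (-0.91, SE 0.18, adjusted p = 0.00490), were the other 2 that fell. The 2 that rose were *Grhl1*, a grainyhead factor of epithelia (2.18, SE 0.29, adjusted p = 0.000330), and *Krt18*, an epithelial keratin (2.75, SE 0.47, adjusted p = 0.00200). *Cdh1*, E-cadherin, counted 8.88 to 12.2 in low and 11.5 to 37.2 in high CHIR and did not pass (1.21, SE 0.47, adjusted p = 0.112). With the block *Zeb2* (-1.89, SE 0.20, adjusted p = 5.16e-05) and *Snai1* (-0.60, SE 0.18, adjusted p = 0.0316) fell too, so that 2 rose and 6 fell, where 20.9% of all genes were called.

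In QKO in high CHIR 1 of the 12 genes was called, against 2.54% of all genes (median -0.05). *Zeb1* was higher, at 605 to 789 against 149 to 310.5 in controls (1.57, SE 0.23, adjusted p = 0.00384). With the block *Zeb2* was higher (0.95, SE 0.20, adjusted p = 0.0150) and *Vim* lower (-0.64, SE 0.14, adjusted p = 0.0202), where 7.44% of all genes were called. Within QKO *Zeb1* (-1.19, SE 0.26, adjusted p = 0.0352), *Snai2* (-2.45, SE 0.40, adjusted p = 0.00826) and *Vim* (-1.23, SE 0.20, adjusted p = 0.00801) fell with CHIR, and the block added *Cdh2* lower and *Grhl1* higher. The interaction called 0 of the 12 by limma, against 0.126% of all genes (2 with an unadjusted p under 0.05, 0 by edgeR and 1 by DESeq2). With the block it called 1, *Zeb1* (1.79, SE 0.29, adjusted p = 0.0214), against 0.857% of all genes. Summed stroma markers, a mesenchymal cell type in which some of these genes are also on, moved with them as given above, and their part in these differences was not tested.

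Of 8 genes for partners and relatives of the Bach factors (small Maf and CNC factors, and *Keap1*), 1 rose and 1 fell with CHIR in controls (median 0.24), against 14.9% of all genes called. *Mafk*, a small Maf partner, counted 85.6 to 97.7 in low and 187 to 215 in high CHIR (1.08, SE 0.19, adjusted p = 0.00251), and *Keap1*, which marks Nrf2 for degradation, counted 659 to 770.5 and 413 to 508 (-0.69, SE 0.19, adjusted p = 0.0303). With the block *Mafg* (0.61, SE 0.18, adjusted p = 0.0299) and *Nfe2l3* (0.97, SE 0.32, adjusted p = 0.0493) rose too, so that 3 rose and 1 fell, against 20.9% of all genes called. *Nfe2l2*, which encodes Nrf2 and had the highest level per kilobase of the list, counted 1631 to 2038 over the controls (CHIR response -0.21, SE 0.12, adjusted p = 0.30). *Nfe2l1*, a related CNC factor, gave -0.12 (SE 0.16). In QKO in high CHIR 0 of the 8 were called by limma, with or without the block (median 0.02), 0 by edgeR and DESeq2, and 1 had an unadjusted p under 0.05. Of all genes 2.54% were called there by limma, and 7.44% with the block.

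Of 12 genes that Bach factors repress and Nrf2 activates, 11 were tested, and 1 rose and 1 fell with CHIR in controls (median 0.22). By limma 14.9% of all genes were called there. *Slc7a11*, the cystine transporter, rose from 196 to 355 to 471 to 521 (0.91, SE 0.21, adjusted p = 0.0119) and *Blvrb*, a biliverdin reductase, fell from 539 to 768 to 151 to 291 (-1.67, SE 0.25, adjusted p = 0.000839). *Hmox1*, heme oxygenase and the best known target of Bach1, counted 303 to 419.5 in low and 454 to 682 in high CHIR (0.62, SE 0.20, adjusted p = 0.0554; with the block SE 0.14, adjusted p = 0.00840). The block also added *Slc40a1*, the iron exporter, as lower (-2.26, SE 0.63, adjusted p = 0.0221), so that 2 rose and 2 fell of the 11, against 20.9% of all genes called. In QKO in high CHIR 0 of 11 were called by limma, against 2.54% of all genes (median 0.29), 3 had an unadjusted p under 0.05, and edgeR called 0 and DESeq2 1. With the block *Nqo1* (0.85, SE 0.15, adjusted p = 0.00606) and *Blvrb* (0.98, SE 0.16, adjusted p = 0.00343) were higher, where 7.44% of all genes were called. The ferritin genes *Ftl1* and *Fth1* had the highest levels per kilobase of this list, and their CHIR responses in controls were 0.22 (SE 0.13, adjusted p = 0.303) and -0.29 (SE 0.19, adjusted p = 0.369).

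**Figure D4:**
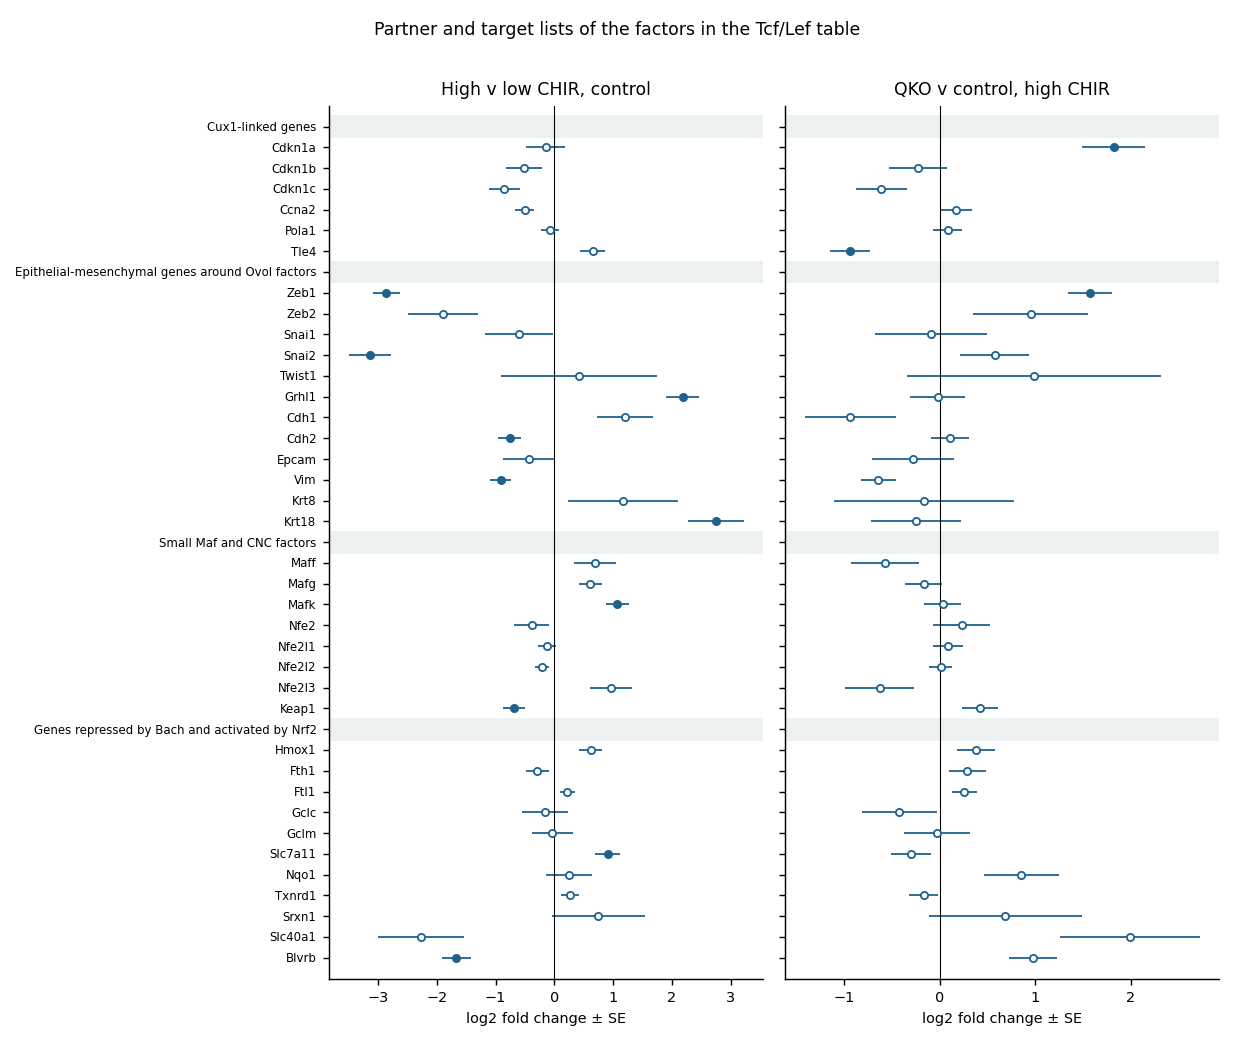
Log2 fold change (x axis) with 1 SE for the genes of 4 lists tested in the Tcf/Lef table, for high against low CHIR in control NPCs (left) and QKO against control in high CHIR (right), filled where called. On the left *Zeb1* (-2.86) and *Snai2* (-3.14) lie farthest below 0 among the filled points and *Krt18* (2.75) farthest above, and on the right *Zeb1* (1.57) and *Cdkn1a* (1.82) are the filled points above 0.

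Without CHIR in wild-type NPCs 2 of 45 tested genes of the 4 lists were called against low CHIR, and 4.97% of all genes. *Pola1* was lower than in low CHIR (-0.84, SE 0.16, adjusted p = 0.0199) and *Fth1* higher (0.51, SE 0.11, adjusted p = 0.0293). In low CHIR 0 genes of the 4 lists were called by limma or edgeR after Cre removal, Cas9 removal or QKO, with 4, 4 and 6 at an unadjusted p under 0.05, and DESeq2 called 1 after Cre removal. By limma 0.328%, 0.0536% and 0.00630% of all genes were called in these comparisons, so few calls could fall in the lists.

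Across all 36 libraries the pattern of each member was set beside that of 11711 genes with a mean of at least 50, as the Pearson correlation of log2(normalized count + 1) centred on each table's mean. The libraries share tables and include those used in choosing *Cux2*, *Ovol1* and *Bach2*, and the values are described with no test. *Ovol1* had the closest neighbours, *Wfdc2* (r = 0.974), *Bmp7* (0.955) and *Rassf2* (0.953). Those of *Cux2* were *Pdgfa* (0.905), *Atp2b1* (0.903) and *Trappc9* (0.897), with *Axin2*, a negative regulator of β-catenin and a common Wnt target, next at 0.890, and those of *Bach2* were *Mpp6* (0.900), *Hoxa7* (0.898) and *Ctbp2* (0.896). The paralogs had looser neighbours, led by *Mtr* for *Cux1* (0.712) and *Tbc1d9* for *Bach1* (0.700). Over the 35 libraries left without wild-type replicate 3 in high CHIR, the same 3 genes led for *Ovol1*, with *Bmp7* at 0.958 and *Rassf2* at 0.956. *Trappc9* (0.909) and *Pdgfa* (0.906) then led for *Cux2*, with *Axin2* at 0.841, and *Ctbp2* (0.912) for *Bach2*. *Boc* (0.799) led for *Cux1* and *Maco1* (0.727) for *Bach1*, so the leading gene of both paralogs changed.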

How the data were processed

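The signal values analysed are normalized counts of 36 libraries in 3 tables, which the authors deposited after aligning reads to the mouse and human genomes combined (GRCm38 and GRCh38) with STAR, counting unambiguous reads per gene with featureCounts and dividing by a DESeq2 size factor per library. Every value (within 0.01) was a whole multiple of what 1 read is worth, so depth is known. The 8 comparison tables, which hold the authors' fold changes, p-values, 50 sample columns and 12 mean columns, were not used. Symbols came from GENCODE vM21 and matched 25701, 26800 and 26407 identifiers.

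For each table log2(normalized count + 1) was fitted with limma 3.58.1 (R 4.3.3), with a variance trend, over genes with a table mean of at least 10, with Benjamini-Hochberg adjustment over all genes of the table. Fold changes are on this scale, which understates the change of low genes. The 8 comparisons named as tested were fitted so. Those used to choose the members carry no test, and for the members the same holds of no against low CHIR, whose low CHIR libraries took part in the choice. Removal in low CHIR was tested, although its libraries entered high against low CHIR contrasts that carry no test. The recovered reads were fitted with DESeq2 1.42.0 and with the quasi-likelihood test of edgeR 4.0.16. Other settings were pseudocounts of 0.5 and 4, no filter, TMM rescaling, only the groups compared, a replicate block and leaving out each library. The scripts were tested on simulated data. Tables were normalized separately, so levels were compared within a table. Same-numbered libraries of the Tcf/Lef table deviated together from their group means (15 pairs, r = 0.262 to 0.768), so values with the block are given there, and in the other tables the numbers were not taken as pairs.

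The members and lists were chosen with earlier results of these data known. Named genes are the members, and list genes called in QKO in high CHIR or in the CHIR response of the Tcf/Lef controls or among the 3 highest per kilobase, while *Cdh1*, *Cdkn1b*, *Hmox1* and those called in other comparisons or only with the block were named after their values were seen. One further list, of other CUT class factors, is not reported here.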

Additional observations from a re-analysis of the deposited data

Results flagged for a closer look

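The effect of β-catenin removal on *Cux2* in low CHIR ran in opposite directions with the 2 methods, at 0.62 on the log2 scale with Cre (2 of 2 Cre-pos libraries above both Cre-neg libraries) and -0.53 with Cas9 (2 of 2 Ctnnb1sgRNA libraries below both GFPsgRNA libraries). Results were flagged here where the libraries of both comparisons did not overlap and went in opposite directions. The difference between the methods in the same limma fit was 1.15 (SE 0.29, adjusted p = 0.999), and 0 of 16780 genes were called for it. That fit used the libraries that raised the flag, so it gives no independent support for a difference. The methods differ in the mouse line and in what is delivered, and these cannot be told apart.

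In high CHIR *Cux1* also differed in direction between the methods, at -0.13 with Cre and 0.074 with Cas9, and that difference was not tested. The effect of QKO on *Cux2* was 0.40 in low CHIR (2 of 2 libraries above all 3 controls) and -1.15 in high CHIR (3 of 3 below all 3 controls), and the test of the difference, the interaction, did not pass the correction (adjusted p = 0.516 by limma).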

How the results depend on the processing

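The members called in QKO in high CHIR went from 0 to 1 with the replicate block (*Bach2*, -1.27) and to 2 by DESeq2 (*Cux2* -1.32, *Bach2* -1.23) and by edgeR with the replicate block (*Cux2* -1.25, *Bach2* -1.21), and within QKO from 0 to 1 with each of those 3 (*Ovol1*). For no against low CHIR in the wild type, where the low CHIR libraries took part in the choice, calls of members are not counted. Over 8 alternatives the log2 difference there ran from -1.39 to -1.24 for *Ovol1* and from -1.08 to -1.05 for *Bach2*. In the comparisons tested for the members the block changed no other call of a member. In the wild-type table same-numbered libraries deviated together at r = 0.0395 to 0.33 (over 0.1 in 7 of 9 pairs), above every other pair (highest 0.021), and in the β-catenin table at -0.11 to 0.64 (over 0.1 in 44 of 56). Leaving out each library gave *Bach2* CHIR responses in the Tcf/Lef controls of 1.22 to 1.74 and 2 to 3 members called. The edgeR fit with the block and the fit without replicate 3 in high CHIR were chosen after seeing the data.

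The directions that reversed were those of differences that had passed no test. With the replicate block *Bach2* in QKO in low CHIR was 0.049. Leaving out each library, *Bach1* ran from -0.46 to 0.20 in Cre removal in low CHIR, -0.37 to 0.025 in QKO in high CHIR, -0.22 to 0.17 in CHIR in controls, -0.16 to 0.039 within QKO, -0.24 to 0.15 in the interaction and -0.0084 to 0.12 in no against low CHIR. *Cux1* ran from -0.11 to 0.17, -0.017 to 0.17, -0.049 to 0.18 (QKO in low CHIR), -0.10 to 0.12 (interaction) and -0.16 to 0.034 (no against low CHIR), the first 2 being Cre removal in low CHIR and QKO in high CHIR, and *Ovol1* in Cas9 removal in low CHIR from -1.11 to 0.042.

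Counts of all genes called moved by over 1.5 times in all 8 comparisons. QKO in high CHIR had 404, 1181 with the block, 859 by DESeq2, 1277 by edgeR with the block and as few as 157 (without QKO replicate 2). Within QKO there were 403, 952, 891, 999 and as few as 129, and for the interaction 20, 136, 158, 140 and 4 to 50. No against low CHIR had 865, 1567 with only the groups compared, 1788 by DESeq2 and 113 to 1912 leaving out a library. Cre removal in low CHIR had 55, 4 with only the groups compared, 173 with the block, 295 by DESeq2 and 18 to 303, Cas9 removal 9, 0, 13, 30 and 0 to 1, and QKO in low CHIR 1, 0, 16, 24 and 0 to 4. CHIR in controls had 2372 and as few as 1545 (without control replicate 2 in low CHIR).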
